A study of Mus musculus with 2 samples.

Results

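The Mir200 family of the mouse consists of 5 miRNA genes in 2 genomic clusters, Mir200b, Mir200a and Mir429 on chromosome 4 and Mir200c and Mir141 on chromosome 6. The genes were taken by name, matched through their Ensembl identifiers, and all 5 were present among the 1973 miRNA genes counted. Small RNA was sequenced from the facial prominence, the embryonic tissue of the future face and jaws, of strain B6NCrl mice on embryonic day 15.5. The 2 biological replicates were pools of both sexes, with 78 embryos in replicate 1 and 62 in replicate 2. The labels name no treatment, mutant allele or other group, so the comparisons were between members within a library and between the libraries. Each pool averages over its embryos and over all cell types dissected, and nothing is known of single embryos.

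A miRNA gene is transcribed as a longer RNA that folds into a hairpin, from which an arm of about the size of a guide RNA is loaded into an Argonaute protein. Bases 2 to 8 of the loaded arm, the seed, pair with target mRNAs. The Mir200 family is known from epithelia, where it represses the transcription factors Zeb1 and Zeb2 and thereby maintains E-cadherin and epithelial identity, and the Zeb proteins in turn repress both Mir200 loci. In the embryonic face, the surface ectoderm and the linings of the mouth and nose are epithelial, while most of the underlying tissue is mesenchyme.

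The sequences of the mature 3p arms are shown because they divide the family in a different way from its genomic clusters. They are taken from RefSeq (GRCm38.p6, the same assembly as mm10), where all 5 hairpins and 10 arms were found, and are written 5′ to 3′ with the seed in capitals.
mmu-miR-200b-3p: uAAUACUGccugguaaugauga
mmu-miR-200c-3p: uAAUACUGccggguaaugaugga
mmu-miR-429-3p: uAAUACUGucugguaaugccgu
mmu-miR-200a-3p: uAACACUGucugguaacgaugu
mmu-miR-141-3p: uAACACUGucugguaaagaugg

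Mir200b, Mir200c and Mir429 share the seed AAUACUG, and Mir200a and Mir141 share the seed AACACUG. Counted from 1 at the 5′ end, with the base of the first-named arm given first, the seeds differ by the single substitution U4C (miR-200b-3p against miR-200a-3p). Each cluster holds both seeds. The most alike arms lie on different chromosomes. Over the 22 bases compared, miR-200b-3p and miR-200c-3p have 20 in common and differ by U11G and A22G, and miR-200a-3p and miR-141-3p have 20 in common and differ by C17A and U22G. Neither seed occurs in any gene outside the family among the 1738 mature arms of the RefSeq table. The 5p arms carry other seeds, of which AUCUUAC is shared by Mir200b and Mir200a and the remaining 3 occur once each.

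The whole hairpins are shown because the deposited tables count reads per hairpin and do not separate the arms. Both mature arms are in capitals, the 5p arm first and the 3p arm second.
Mir200b: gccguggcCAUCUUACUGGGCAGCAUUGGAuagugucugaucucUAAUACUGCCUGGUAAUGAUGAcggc
Mir200a: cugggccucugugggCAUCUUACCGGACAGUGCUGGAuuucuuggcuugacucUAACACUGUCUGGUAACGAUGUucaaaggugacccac
Mir429: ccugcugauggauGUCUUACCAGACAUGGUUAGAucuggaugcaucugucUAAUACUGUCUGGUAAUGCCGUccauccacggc
Mir200c: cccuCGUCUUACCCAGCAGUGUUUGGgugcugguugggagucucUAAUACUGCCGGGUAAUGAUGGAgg
Mir141: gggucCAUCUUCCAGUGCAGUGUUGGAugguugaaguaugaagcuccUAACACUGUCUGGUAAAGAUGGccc

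The longest exact stretch that a member's hairpin shares with another member is 17 bases, between Mir200a and Mir141, and the corresponding figure is 14 bases for Mir200b and Mir200c and 12 bases for Mir429. Against the hairpins outside the family, no member shares more than 11 bases. A read that lies wholly within a shared stretch maps to several places and is not given to a gene in these tables, and how many such reads there were for the family was not tested. Full-length arms differ from each other by at least 2 bases. The aligner's tolerance for mismatches is not given in the sources used here.

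All 5 genes lie on the minus strand, in the order Mir200b, Mir200a, Mir429 and Mir200c, Mir141 in the direction of transcription (mm10). Mir200b (chr4:156055681-156055750) is intronic to the protein-coding gene Ttll10 and the noncoding transcript Gm13648 on the same strand. Mir200a (chr4:156054896-156054985) follows after 695 bases and is likewise intronic to both. Mir429 (chr4:156053905-156053987) follows after a further 908 bases, in an intron of Ttll10 and inside an annotated exon of Gm13648. On chromosome 6, Mir200c (chr6:124718322-124718390) and Mir141 (chr6:124717914-124717985) are separated by 336 bases and lie within an intron of the noncoding gene Gm15884, and Mir141 also overlaps part of the unclassified single transcript Gm29008. The whole chromosome 4 cluster spans 1846 bases and the chromosome 6 cluster 477 bases.

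**Figure D1:**
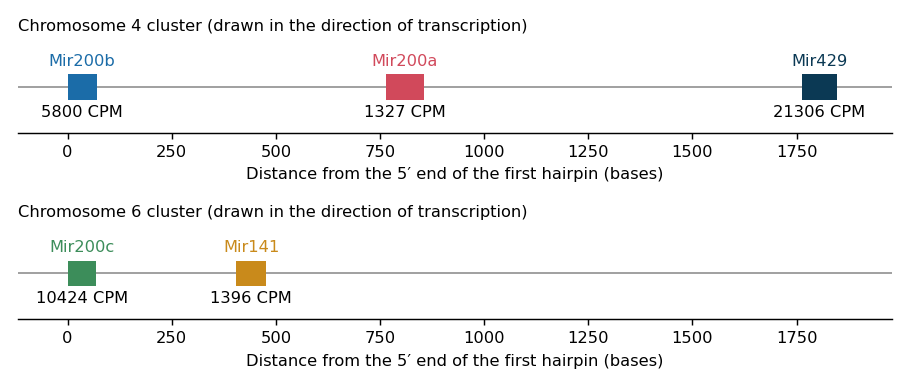
Positions of the 5 hairpins, as the distance in bases from the 5′ end of the first hairpin of each cluster, drawn to the same scale in both panels with boxes as long as the hairpins. The mean CPM of the 2 libraries stands under each box, and neighbouring hairpins differ widely, from 1327 CPM for Mir200a to 21306 CPM for Mir429 on chromosome 4 and from 10424 CPM for Mir200c to 1396 CPM for Mir141 on chromosome 6.

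The libraries held 2978463 reads assigned to miRNA genes in replicate 1 and 6408008 in replicate 2, and 333 genes had at least 10 reads in both, which counted as detected. All 5 members were detected. Their reads came from the strand of the gene, with the exception of 1 read on the opposite strand of Mir200a in replicate 2. Levels are given as CPM, reads per 1000000 assigned reads after TMM scaling, on which scale 3 reads are worth 1.00 CPM in replicate 1 and 0.470 CPM in replicate 2. Reads that map to several places, 30.6% and 29.7% of all reads, are in no gene's count. The intervals below are exact binomial intervals on reads, so they cover counting error only. The tables carry no molecular identifiers, so copies of a molecule made by amplification count as separate reads, and the intervals do not allow for this.

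The family as a whole took 3.73% of the assigned reads in replicate 1 (95% Clopper-Pearson interval 3.70 to 3.75) and 4.32% in replicate 2 (4.31 to 4.34). The summed level was 37082 CPM in the first pool and 43424 CPM in the second, or 40253 ± 4484 CPM (SD, n = 2). In bulk tissue, fewer epithelial cells and less miRNA per cell cannot be told apart, so these sums give no level per epithelial cell.

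Mir429, the last hairpin of the chromosome 4 cluster, was the most abundant member. It had 57253 reads (19130 CPM) in replicate 1 and 149744 reads (23482 CPM) in replicate 2, a mean of 21306 ± 3077 CPM (SD, n = 2), and ranked 12 among all counted genes in both libraries. Mir200c, the first hairpin on chromosome 6, had 29751 reads (9941 CPM) and 69562 reads (10908 CPM), a mean of 10424 ± 684 CPM (SD, n = 2), and ranked 24 in both. Both members were thus among the abundant miRNA genes in each pool by these counts, which leave out reads that map to several places. Genes with near-identical copies may therefore rank too low here.

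Mir200b, the first hairpin on chromosome 4, shares its seed with the preceding 2 genes and stood lower than both. It had 15787 reads (5275 CPM) in replicate 1 and 40339 reads (6326 CPM) in replicate 2, a mean of 5800 ± 743 CPM (SD, n = 2), and ranked 42 and 33. The values of Mir429, Mir200c and Mir200b did not overlap with each other in the 2 libraries, and each gap between their means exceeded the SDs on either side.

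The genes with the other seed were the least abundant of the family. Mir141 had 4024 reads (1345 CPM) in replicate 1 and 9236 reads (1448 CPM) in replicate 2, a mean of 1396 ± 73.4 CPM (SD, n = 2). Mir200a had 4169 reads (1393 CPM) and 8038 reads (1260 CPM), a mean of 1327 ± 93.7 CPM (SD, n = 2). Their means differed by less than either SD, and the pools gave them opposite orders, with Mir200a above Mir141 in replicate 1 and below it in replicate 2. The order of mean levels was therefore Mir429, Mir200c, Mir200b, and then Mir141 and Mir200a without a resolved order. A mature miRNA yields about 1 read per molecule whatever the length of its hairpin, so levels were compared per read. When each level was divided by the length of the annotated hairpin (69 to 90 bases) and rescaled to the family's mean length, the order of means was the same, from 19714 CPM for Mir429 to 1132 CPM for Mir200a.

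**Figure D2:**
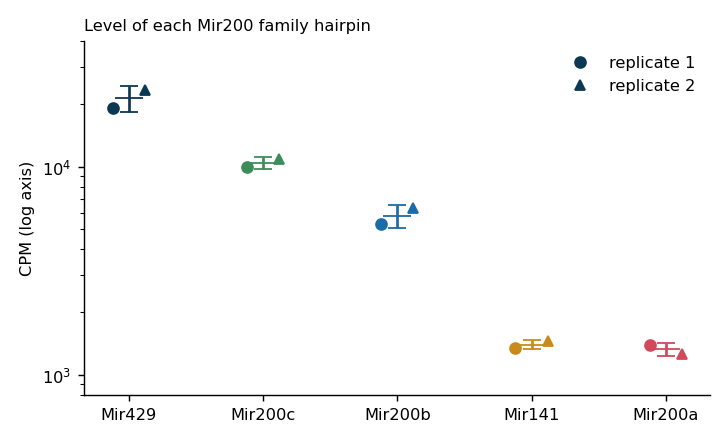
CPM of each member on a log axis, with replicate 1 as circles, replicate 2 as triangles and the mean ± SD (n = 2) as a horizontal line with bars. Mir429, Mir200c and Mir200b form separate steps of 21306, 10424 and 5800 CPM, while Mir141 and Mir200a lie together near 1396 and 1327 CPM, and with this TMM scaling Mir200a is the member whose triangle lies below its circle, which with all reads as the denominator is also so for Mir200c and Mir141.

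The balance of the 2 seeds was strongly uneven. Hairpins with the 3p seed AAUACUG, both arms included, summed to 34345 CPM in the first pool and 40715 CPM in the second, and hairpins with AACACUG to 2737 and 2709 CPM. Within each library, where no scaling enters, reads from hairpins of the AAUACUG group outnumbered those of the AACACUG group 12.5-fold in replicate 1 (95% interval 12.3 to 12.8) and 15.0-fold in replicate 2 (14.8 to 15.3), a mean of 13.8 ± 1.76 (SD, n = 2). The excess was present in both clusters. On chromosome 4, Mir200b and Mir429 together exceeded Mir200a 17.5-fold (17.0 to 18.1) and 23.6-fold (23.1 to 24.2). On chromosome 6, Mir200c exceeded Mir141 7.39-fold (7.15 to 7.64) in replicate 1 and 7.53-fold (7.37 to 7.70) in replicate 2. Adapter ligation and amplification are known to favour some small RNA sequences over others, so a ratio of reads between different arms is not a ratio of molecules, and the part of such bias here was not tested.

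The balance of the clusters was less uneven. The chromosome 4 genes reached 25797 CPM in the first pool and 31068 CPM in the second, and the chromosome 6 genes 11285 and 12356 CPM. The ratio of reads was 2.29 (2.26 to 2.32) and 2.51 (2.49 to 2.54), a mean of 2.40 ± 0.161 (SD, n = 2). Mir429 alone supplied 51.6% of the family's reads in replicate 1 and 54.1% in replicate 2, more than all other members together in both pools. Mir200c supplied 26.8% and 25.1%, Mir200b 14.2% and 14.6%, Mir200a 3.76% and 2.90%, and Mir141 3.63% and 3.34%.

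**Figure D3:**
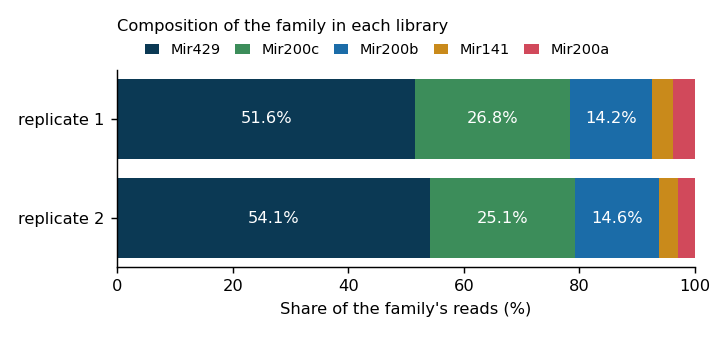
Share of each member in the family's reads in percent, with 1 bar per library. The composition is similar in both pools, with Mir429 at 51.6% and 54.1%, Mir200c at 26.8% and 25.1% and Mir200b at 14.2% and 14.6%, while Mir141 and Mir200a form the narrow segments at the right.

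The replicate pools were then compared, to see whether the members moved together from pool to pool. For the family sum, the log2 ratio of replicate 2 over replicate 1 was 0.23 (95% counting interval 0.22 to 0.24) with TMM scaling of the assigned reads, and 0.049 when all reads of a library, assigned or not, were the denominator. Mir429 (log2 ratio 0.30, 0.28 to 0.31), Mir200b (0.26, 0.24 to 0.29), Mir200c (0.13, 0.11 to 0.15) and Mir141 (0.11, 0.05 to 0.16) were higher in replicate 2, although with all reads as the denominator the directions of Mir200c (−0.045) and Mir141 (−0.071) were reversed. Mir200a differed in the other direction, with a log2 ratio of −0.14 (−0.20 to −0.09), and was lower in replicate 2 with every denominator tried. A two-sided exact binomial test on the reads, Benjamini-Hochberg adjusted over the 333 detected genes, called 4 members higher in replicate 2 and 1 higher in replicate 1, against 2 and 3 with all reads as the denominator. That denominator moved the median log2 ratio of all detected genes by −0.18, and under it 49 genes were called higher in replicate 2 and 160 higher in replicate 1, against 86 and 92 with TMM. Replicate 2 had a larger share of reads assigned to no miRNA gene. The exact binomial adjusted p was 0.0002 for Mir141 and 5.97e-07 for Mir200a.

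These counts stand against a background in which the same test called 53.5% of all detected genes, with 25.8% higher in replicate 2 and 27.6% in replicate 1. Among the 140 genes with at least 1000 reads in each library, to which all members belong, it called 83.6%, made up of 40.0% higher in replicate 2 and 43.6% higher in replicate 1. Only counting error enters this test, which sets 1 library against 1, and permuting 2 libraries exactly gives no p under 0.5. By size, 0 of the 5 members differed by more than 1.5-fold, against 11.4% of the detected genes and 3.57% of those with at least 1000 reads in each library. The median size of the log2 ratio was 0.14 over the members and 0.21 over all detected genes.

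**Figure D4:**
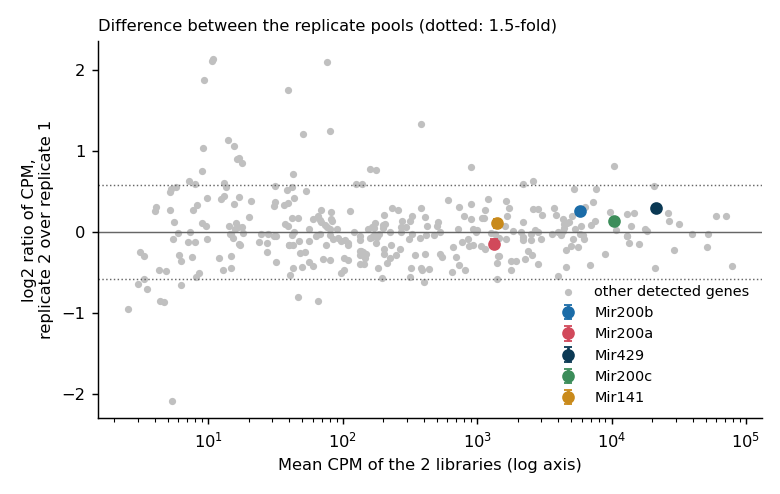
Log2 ratio of the CPM of replicate 2 to that of replicate 1 against mean CPM (log axis) for the 333 detected genes, with the members in colour and their 95% counting intervals as bars, which are mostly shorter than the symbols. With this TMM scaling all members lie inside the dotted lines at 1.5-fold, 4 above 0 and Mir200a below it at −0.14, while with all reads as the denominator Mir200c (−0.045) and Mir141 (−0.071) also fall below 0.

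Within the chromosome 4 cluster, the proportion of the outer hairpins differed little between the pools, and that of the middle hairpin differed more. Mir200b had 0.276 reads per read of Mir429 in replicate 1 (95% interval 0.271 to 0.281) and 0.269 in replicate 2 (0.266 to 0.272), a log2 change of −0.03. Mir200a, which lies between them, had 0.0728 reads per read of Mir429 in replicate 1 (0.0705 to 0.0751) and 0.0537 in replicate 2 (0.0525 to 0.0549), a log2 change of −0.44. Likewise Mir200b exceeded Mir200a 3.79-fold (3.66 to 3.92) in replicate 1 and 5.02-fold (4.90 to 5.14) in replicate 2. The ratio of Mir200a to Mir141, its seed partner on the other chromosome, was 1.04 (0.992 to 1.08) in replicate 1 and 0.870 (0.845 to 0.897) in replicate 2. These ratios within a library do not depend on scaling. With 2 pools they rest on a single difference, and the replicates differ in depth as well as in embryos.

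To place these differences, all pairs of detected miRNA genes on 1 strand with starts within 10 kb were described in the same way. There were 324 such pairs outside the family, many of which share a gene, so they are not independent. Most of them lie in 1 region of chromosome 12, from Mir770 to Mir3072, so the medians and counts over pairs mainly describe that region. The replicate log2 ratios of Mir429 and Mir200b differed by 0.03 and those of Mir200c and Mir141 by 0.03, while the median gap was 0.24 over the other pairs and 0.22 over the 90 pairs with at least 1000 reads for both genes in each library. A larger gap was seen in 300 of the 324 pairs for the former and in 302 for the latter. Of the 90 pairs with at least 1000 reads, 86 and 87 had a larger gap. The gaps of 0.44 between Mir429 and Mir200a and of 0.41 between Mir200b and Mir200a were above that median, and 74 and 82 of the 324 pairs had larger ones. Among the 90 deeply covered pairs, 18 and 20 had larger gaps. Gaps of this size between neighbours were thus found elsewhere in these libraries too.

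Neighbouring hairpins elsewhere also had unequal levels. The log2 gap in mean level was 4.01 for Mir429 over Mir200a, 2.90 for Mir200c over Mir141, 2.13 for Mir200b over Mir200a and 1.88 for Mir429 over Mir200b. The median over the other 324 pairs was 2.65, and 109 of them had a larger gap than Mir429 and Mir200a. Over the 90 deeply covered pairs the median was 1.49, which all 4 family gaps exceeded, and 9 of the 90 had a larger gap than Mir429 and Mir200a.

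**Figure D5:**
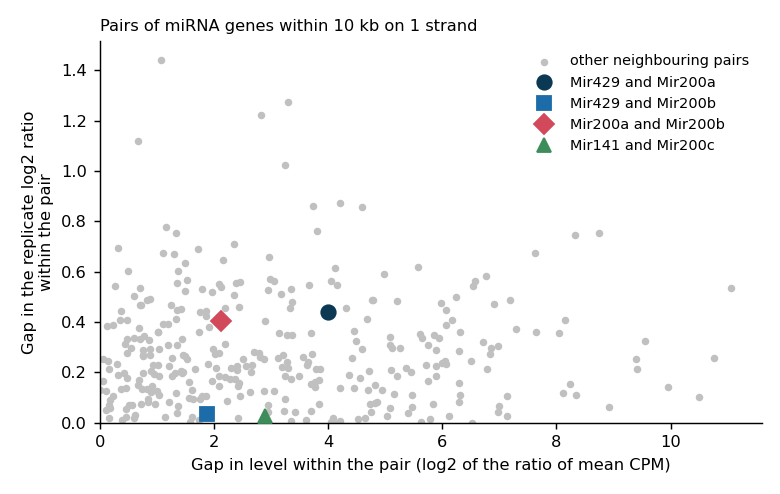
Each point is a pair of detected miRNA genes on 1 strand with starts within 10 kb, with the gap in mean level on the x axis (log2) and the gap between the replicate log2 ratios on the y axis. The 2 family pairs without Mir200a lie at the bottom at 0.03, and the 2 pairs with Mir200a lie at 0.44 and 0.41, among the other 324 pairs, drawn in grey.

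With the same scaling, among other miRNAs of epithelia some were higher in replicate 1, opposite to the family sum, and some in replicate 2. Mir203, a miRNA of differentiating epidermis, had 90474 CPM in replicate 1 and 67536 CPM in replicate 2, and Mir205, of stratified epithelia, 24243 and 17733 CPM. The family had 0.410 reads per read of Mir203 in replicate 1 (95% interval 0.407 to 0.413) and 0.643 in replicate 2 (0.640 to 0.646). Per read of Mir205 it had 1.53 (1.52 to 1.54) and 2.45 (2.43 to 2.47). Mir31, another miRNA of keratinocytes, was also higher in replicate 1, at 758 against 539 CPM. Against the sensory cluster of Mir183, Mir96 and Mir182, the family's ratio moved the other way, from 2.53 (2.51 to 2.56) to 2.13 (2.11 to 2.14). Of the 7 genes of the epithelial comparison list, the exact binomial test called 4 higher in replicate 2 (the sensory genes and Mir375, known from endocrine cells and other epithelia) and 3 higher in replicate 1, so that all 7 were called, beside 53.5% of all detected genes and 83.6% of those with at least 1000 reads in each library. Past 1.5-fold were 2 of the 7, Mir96 and Mir375, beside 11.4% and 3.57%. With total-count scaling only Mir96 passed, beside 35 of the 333 detected genes. With all reads as the denominator Mir203, Mir205 and Mir31 passed instead, beside 57 of the 333. The family's log2 ratio of 0.23 lay between those of Mir203 (−0.42) and of the summed sensory cluster (0.48). The part of the make-up of the dissected epithelium in these values was not tested.

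The summed markers of mesenchyme, smooth muscle and cartilage lay close together in the pools with TMM scaling. The 7 genes of the mesenchymal comparison list (Mir199a-1, Mir199a-2, Mir199b and Mir214 of mesenchyme, Mir143 and Mir145a of smooth muscle, and Mir140 of cartilage) reached 49070 CPM in the first pool and 47570 CPM in the second, a log2 ratio of −0.04. With all reads as the denominator this log2 ratio was −0.22. Most of the sum came from Mir143, Mir214 and Mir140, with means of 17785, 15971 and 12939 CPM. With TMM scaling, the log2 ratios of the 7 single genes ran from −0.21 for Mir145a to 0.35 for Mir199a-1. Those of Mir214 and Mir199b were −0.16 and 0.28. None of them passed 1.5-fold, beside 11.4% of all detected genes. The test called 3 higher in each library and left 1 uncalled, or 6 of 7 called beside 53.5% of all detected genes. With all reads as the denominator it called 1 higher in replicate 2 and 4 higher in replicate 1. Of all 333 detected genes, 49 and 160 were then called in these directions. The family had 0.756 reads per read of this list in replicate 1 (0.750 to 0.762) and 0.913 in replicate 2 (0.908 to 0.918). The Mir199a genes have near-identical copies, so part of their reads map to several places and their values are uncertain. The sum of the list and the family's ratio to it carry this uncertainty too. Whether Mir199b lost reads in the same way was not tested.

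For each member, the detected gene outside the family with the most similar levels was found by the Euclidean distance of log2 CPM over the 2 libraries. For Mir141 this was Mir16-1 at a distance of 0.04, with 1357 and 1484 CPM, a gene that has a near-identical copy and an uncertain count. For Mir200a it was Mir148a at 0.10, with 1366 and 1346 CPM. Mir200c was nearest to Gm25301 at 0.10, with 10680 and 10816 CPM from reads that all lay on the strand opposite to that gene, and Mir200b to Mir10b, a Hox cluster miRNA, at 0.14, with 5764 and 6083 CPM. Mir429 was nearest to Mir100 at 0.21, although Mir100 differed more between the pools, with 16691 and 24662 CPM. With 2 libraries such a likeness is mainly one of level.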

How the data were processed

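The deposited values are raw counts of reads on miRNA genes, made by the authors on mm10 with GENCODE M4, per the labels and the list of files. A table has 3 count columns (either strand, strand of the gene, opposite strand) and lines that name no gene. These lines, which hold 49.0% of all reads in replicate 1 and 54.5% in replicate 2, stayed out of library sizes. Aligner and counter: not given in the sources used here.

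Symbols, positions and overlapping genes came from GENCODE M21 (same build), matched by identifier without version, for 1894 of 1973 genes. The versions of Mir200b and Mir200c differ between M4 and M21, so their counted intervals may differ slightly from those given. Sequences came from RefSeq.

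Counts on either strand were scaled with TMM in edgeR 4.0.16 (R 4.3.3). Shares carry 95% exact Clopper-Pearson intervals, and ratios the same intervals transformed. The binomial test used the ratio of effective library sizes, with an adjusted threshold of 0.05, on genes with at least 10 reads in each library. Tested on simulated data (replicate 2 against replicate 1, 328 genes, with no noise beyond counting), the calls took in 85.0% of 100 genes given a 1.5-fold change, 94.9% of 98 given 2-fold and 3.85% of 130 without change. The replicates are separate pools of embryos per the labels, so the SD includes variation from dissection through sequencing.

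Named genes were all members, each member's nearest gene in level, and both comparison lists. Any other gene sharing a member's seed would have been named, and there was none. The members and lists were chosen with earlier results of these data known. Alternatives were total-count scaling, DESeq2 1.42.0 size factors, all reads as the denominator, strand-specific counts, Mir203 left out of the totals, levels per length, other read filters and each replicate left out. Python 3.11.15, pandas 2.3.3, scipy 1.17.1 and matplotlib 3.10.9 were used.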

Additional observations from a re-analysis of the deposited data

How the results depend on the processing

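With total-count scaling, DESeq2 size factors, counts on the strand of the gene, Mir203 left out of the totals and the other read filters, the 5 members kept the direction of their difference between the pools and their exact binomial call. The log2 ratio of the family sum was 0.21 with total-count scaling and 0.25 with DESeq2 size factors. With all reads as the denominator, which also counts reads in no gene and was applied to the pool difference after seeing the data, that ratio was 0.049 and the family sum 19331 CPM. Mir200c (−0.045) and Mir141 (−0.071) were then reversed, so that 2 members were called higher in replicate 2 and 3 higher in replicate 1. Divided by hairpin length, the ratio of the chromosome 4 to the chromosome 6 cluster was 2.07. The background moved with the read filter. Of the 333 detected genes, 38 passed 1.5-fold. With no filter, 333 genes passed, which is not the same set as the detected genes. There, genes with few reads enter, and a gene with reads in only 1 library always passes. With at least 100 reads in each library, 13 genes passed. With at least 1000 reads, an alternative chosen after seeing the data, 5 passed and 117 were called. Leaving out either replicate leaves a single library, whose values are those given above. No paired analysis was possible because there was only 1 group. With 2 pools, differences between them cannot be assigned to the embryos, the dissection or the library.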
